A study of Macaca fascicularis with 20 samples.

Results

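The comparison was the main effect of surface CD11b on gene expression in splenic natural killer (NK) cells of the cynomolgus macaque (Macaca fascicularis). Arrays of CD11b+ NK cells (n = 10) were set against arrays of CD11blo NK cells (n = 8), with CD27 status as an additive term. The arrays were chosen by their titles, which gave 18 of the 20 arrays of the series, and the B cell arrays were left out. The CD11b+ side held CD27+CD11b+ cells (5 arrays) and CD27loCD11b+ cells (5 arrays), and the CD11blo side held CD27+CD11blo cells (4 arrays) and CD27loCD11blo cells (4 arrays). Every subset was NKG2A+CD8a+, came unstimulated from thawed spleen samples through a live gate of CD45+ cells without CD3, CD14, CD20 or HLA-DR, and was measured on a one-colour array as amplified, Cy3-labelled RNA. The word "lo" names a gate of low staining, so the CD11blo cells are not stated to lack CD11b.

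CD11b is the alpha chain of the integrin Mac-1, and CD27 is a costimulatory receptor related to those of tumour necrosis factor. In mouse NK cells CD27 appears before CD11b, and CD27 is then lost. The granules of NK cells hold cytotoxic proteins that are released onto target cells. Perforin forms pores in the target membrane and granzymes enter through them to start cell death. Roles named for genes in the following paragraphs are those known in human or mouse.

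The labels call the arrays of a subset biological replicates and name no animal. Origin, sex and age gave 5 donor labels when the ages of 9 to 12 years in replicate 3 were taken as 1 label, which is an assumption. Replicates 1 (aged 4 years), 2 (age unknown) and 3 each carried 1 origin and sex in the 4 subsets, with ages of 9, 10, 11 and 12 years in replicate 3. An 18-year-old female label occurred in the 4 subsets, and a 5-year-old male label in the CD11b+ subsets alone. CD11b+ and CD11blo arrays may thus hold cells of the same animals, and p-values measure the spread between arrays. Each label also gave a CD27+ and a CD27lo array to the same side. The 10 CD11b+ arrays thus carried 5 donor labels and the 8 CD11blo arrays 4, whereas the main fit treated all arrays as independent. On the NK arrays the 75th percentile of intensity spanned 180 to 1901 units, and the dimmest arrays were replicates 4 of CD27+CD11b+ (180 units, 67.9% of probes well above background) and of CD27loCD11blo (200.6 units, 81.0%). The log2 75th percentile differed by -0.03 between CD11b+ and CD11blo arrays (two-sided exact permutation test within CD27 status, p = 0.937), and the percentage of probes well above background by -1.87 (p = 0.603, same test). The NK genes KLRD1, NKG7, EOMES, TBX21 and KLRB1 were well above background on all 18 arrays, and NCR1 on 17. CD3D, a gene of the T cell receptor complex, was also well above background on all 18, with a log2 difference of -0.61 ± 0.55 (limma standard error, adjusted p = 0.934). No probe was matched to ITGAM, the gene of CD11b, so the sort by CD11b could not be checked on its own transcript. CD27, an additive term of the fit, had a log2 difference of -0.28 ± 0.30 (adjusted p = 0.934) between CD11b+ and CD11blo arrays.

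Of 12192 genes tested, 1 passed an adjusted p of 0.05 with a higher level in CD11b+ cells (0.0082%) and 0 with a lower level. The gene was PLEKHG3, and the test was limma's moderated test with Benjamini-Hochberg adjustment. At an unadjusted p under 0.05 there were 223 genes higher in CD11b+ arrays (1.83%) and 433 lower (3.55%), together 5.38% against the 5% that this threshold gives by itself. The median log2 difference of all genes was -0.13, so that a difference of 0 is already above most genes. With quantile normalization in place of the 75th percentile that median was -0.02, and the split was 325 higher and 253 lower. PLEKHG3 was also the one gene whose 10 CD11b+ arrays all lay above the 8 CD11blo arrays (0.0082%), and 0 genes showed the reverse.

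PLEKHG3 encodes an actin-binding protein found at the front of migrating cells. Its log2 level, with 0 set at the 75th percentile of the array, ran between 0.34 and 3.53 (median 2.39) on the CD11b+ arrays, against -2.15 to 0.02 (median -0.83) on the CD11blo arrays. The groups did not overlap. PLEKHG3 rose by a log2 difference of 3.07 ± 0.42, an 8.4-fold level (adjusted p = 0.00708, limma). By subset its level was 2.38 ± 1.16 in CD27+CD11b+ cells and 1.94 ± 0.98 in CD27loCD11b+ cells, against -1.28 ± 0.68 in CD27+CD11blo and -0.55 ± 0.52 in CD27loCD11blo cells (SD, n = 5, 5, 4 and 4). A second PLEKHG3 probe gave 3.01. PRF1, PLEKHG3 and SELPLG had been picked as CD11b genes on these same arrays, so their rank is a description rather than independent evidence.

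The call of PLEKHG3 depended on how slides and donors entered the fit. Replicates 1 and 2 of all subsets shared the first slide, the second held replicate 3 of all subsets and replicate 4 of the CD11blo subsets, and the third replicates 4 and 5 of the CD11b+ subsets alone. With slide as a fixed block PLEKHG3 had a difference of 2.95 (adjusted p = 0.0846), and with the donor label as a block 2.90 (adjusted p = 0.0876). On the first slide alone it was 3.39 (adjusted p = 0.325) and on the second alone 2.29 (adjusted p = 1). With slide as a random block it was 3.05 and passed (adjusted p = 0.0108). In the fits that left out 1 array, PLEKHG3 passed in all 18.

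PRF1, the perforin gene, came next by p. Its log2 level was between 2.51 and 4.15 (median 3.60) on CD11b+ arrays, against 0.44 to 2.52 (median 1.28) on CD11blo arrays, and 9 of the 10 CD11b+ arrays lay above all CD11blo arrays. The log2 difference was 1.95 ± 0.33, 3.86-fold, and the adjusted p of 0.0600 missed the threshold. CD27+CD11blo cells held an intermediate level of PRF1 (2.03 ± 0.78, n = 4), between CD27loCD11b+ (3.54 ± 0.78, n = 5) or CD27+CD11b+ (3.36 ± 0.51, n = 5) and CD27loCD11blo cells (0.97 ± 0.40, n = 4). PRF1 passed in 9 of 37 alternative fits, and on the first and second slides alone its difference was 1.32 and 1.99. GZMH, a granzyme gene, had levels between 1.48 and 6.49 (median 5.00) on CD11b+ arrays, against -0.02 to 4.04 (median 2.18) on CD11blo arrays. Its difference was 2.59 ± 0.58 (adjusted p = 0.278), and 8 CD11b+ arrays lay above all CD11blo arrays.

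SELPLG encodes PSGL-1, the mucin-like ligand by which leukocytes roll on selectins. Its log2 level was between 0.33 and 2.54 (median 1.80) on CD11b+ arrays, against -1.94 to 0.58 (median -0.52) on CD11blo arrays, with 9 CD11b+ arrays above all CD11blo arrays. The difference was 2.02 ± 0.37, 4.05-fold (adjusted p = 0.0681), and it was nearly equal within CD27+ cells (1.97 ± 0.53) and within CD27lo cells (2.06 ± 0.53). SELPLG passed in 3 of 37 alternative fits. On the first and second slides alone the SELPLG difference was 1.77 and 1.90.

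**Figure D1:**
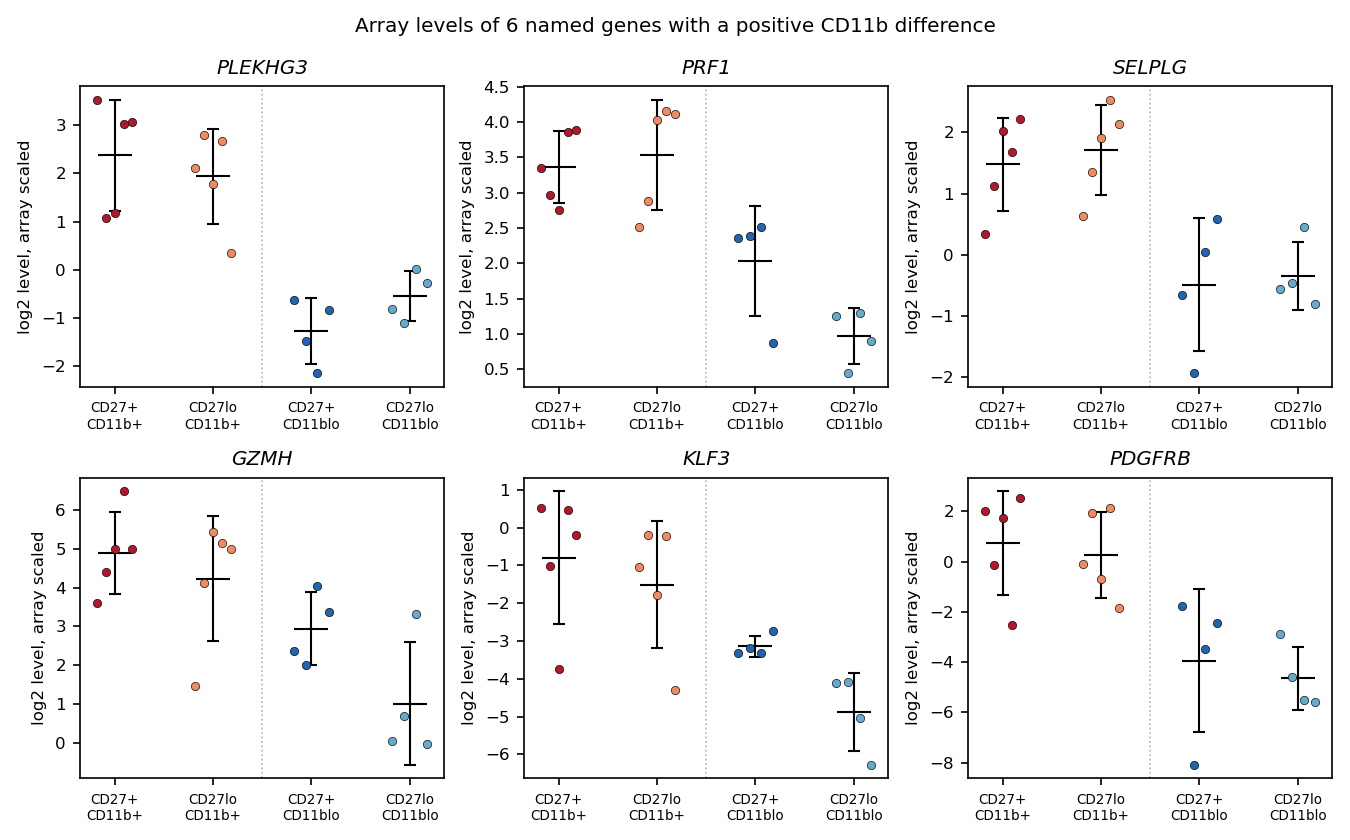
Each point is 1 array, grouped by subset, and the y axis is the log2 level with 0 at the 75th percentile of the array. Bars are the mean and SD (n = 5 for each CD11b+ subset, 4 for each CD11blo subset), and the dotted line parts CD11b+ from CD11blo. All CD11b+ points of PLEKHG3 lie above its CD11blo points, and in the other 5 genes the groups overlap by at least 1 array.

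The remaining genes of lowest p with a positive difference did not pass the test. They took in signalling proteins, transcription factors and membrane proteins. KLF3, a zinc-finger repressor of the Krüppel-like family, had a log2 difference of 2.86 ± 0.61 (adjusted p = 0.218), with levels between -4.29 and 0.51 (median -0.63) on CD11b+ arrays, against -6.27 to -2.75 (median -3.71) on CD11blo arrays. The CD11b+ arrays of KLF3 included 2 within the CD11blo range, 1 in each subset, and its difference was 3.23 on the first slide alone and 1.58 on the second. STK38, a kinase of the NDR family, had a difference of 2.01 ± 0.43, and RAP2B, a small GTPase of the Ras family, 1.37 ± 0.29 (both adjusted p = 0.218). TSPAN2, a tetraspanin, had 1.65 ± 0.36, and ZNF449, a zinc-finger protein, 3.22 ± 0.70 (both adjusted p = 0.218). However, ZNF449 was well above background on 10 CD11b+ arrays and 3 CD11blo arrays, and its highest level (1.72) came from the dimmest array. INPP5F, a phosphoinositide phosphatase, had 2.07 ± 0.48 (adjusted p = 0.308). SENP5, a protease that removes SUMO, had 2.76 ± 0.54 (adjusted p = 0.141), but was well above background on 9 CD11b+ arrays and 1 CD11blo array.

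PDGFRB, a growth factor receptor known from pericytes and fibroblasts, had a log2 difference of 4.80 ± 0.84 (adjusted p = 0.0681). Its levels were between -2.52 and 2.52 (median 0.81) on CD11b+ arrays, against -8.08 to -1.77 (median -4.05) on CD11blo arrays, and 8 CD11b+ arrays lay above all CD11blo arrays. PDGFRB was well above background on 10 CD11b+ and 5 CD11blo arrays. It passed in 8 of 36 alternative fits, quantile normalization (5.08, adjusted p = 0.0260) and the deposited matrix (5.14, adjusted p = 0.0240) among them. Of the 19 stromal and endothelial genes tested, 13 lay below the median of all genes and the median of the list was -0.45. That median was -0.05 with slide as a fixed block, -0.29 on the first slide alone and 0.14 on the second. COL11A1 (2.15 ± 0.58) and THY1 (1.28) stood with PDGFRB on the positive side at an unadjusted p under 0.05, and TEK (-0.91) and PECAM1 (-0.80) on the other. Over all genes that threshold gave 1.83% higher and 3.55% lower. The collagen genes COL1A1 and COL3A1, which define fibroblasts, had -0.73 and -0.83, and 8 of the 19 genes were well above background on all 18 arrays. The summed log2 level of the list, which PDGFRB enters, was 2.98 to 3.88 (median 3.64) on CD11b+ arrays and 2.58 to 4.11 (median 3.20) on CD11blo arrays. The part of stromal cells in the PDGFRB value was not tested.

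**Figure D2:**
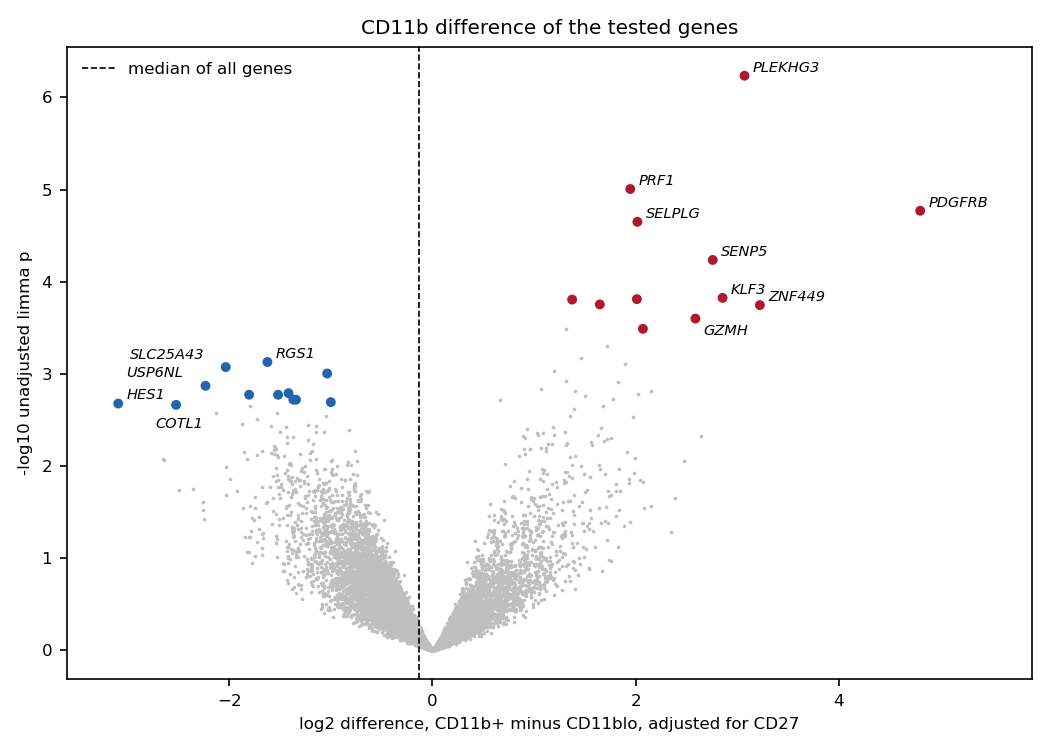
Each point is a tested gene (12192 in all), with the log2 difference of CD11b+ minus CD11blo arrays adjusted for CD27 on the x axis and -log10 of the unadjusted limma p on the y axis. Coloured points are the 12 genes of lowest p in each direction, and the dashed line is the median of all genes (-0.13). PLEKHG3 stands apart from the others by p, and PDGFRB has the greatest difference of the coloured points.

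A list of 35 genes of mature effector NK cells had 25 members tested, of which 20 lay above the median of all genes, where 50% of all genes lie. Their median log2 difference was 0.50, or 0.63 above that of all genes, and 7 were higher at an unadjusted p under 0.05 (1.83% of all genes) and 0 lower (3.55%). None passed the adjusted test. The list was written with results of these arrays known, and PRF1 and GZMH belong to it. The other 5 members with p under 0.05 were named after their values were seen. S100A4, a calcium-binding protein of motile cells, had levels between 1.83 and 3.30 (median 2.87) on CD11b+ arrays, against 0.41 to 2.48 (median 1.38) on CD11blo arrays, and a difference of 1.31 ± 0.30 (adjusted p = 0.308). LGALS1, the gene of galectin-1, had a difference of 1.40 ± 0.38, and FGFBP2, a secreted protein of cytotoxic lymphocytes, 1.68 ± 0.48 (adjusted p = 0.671 and 0.681). CEP78, a centrosomal protein, had 1.07 ± 0.35, and TBX21, the gene of the transcription factor T-bet, 0.90 ± 0.39. TBX21 ranged over 1.65 to 4.11 on CD11b+ arrays and 0.36 to 3.84 on CD11blo arrays, so that the groups overlapped almost throughout.

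Of 22 cytotoxic granule genes tested, 15 lay above the median of all genes, with a list median of 0.30, and 3 were higher at an unadjusted p under 0.05 (1.83% of all genes) and 0 lower (3.55%). These were PRF1, GZMH and NKG7, whose product takes part in granule release (1.23 ± 0.47, adjusted p = 0.887). Of the 22 genes, 13 had a positive difference, and the lowest member had -1.08. GNLY, the gene of granulysin, had 0.97 ± 0.47 (adjusted p = 0.909), and GZMB, which encodes granzyme B, 0.44. On the second slide alone the median of the granule list was 0.06, close to the 0.06 of all genes, and on the first it was 0.44.

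Among transcription regulators of NK cells, 19 of 35 lay above the median of all genes and the list median was 0.01. RUNX3, a Runt-domain factor of cytotoxic lymphocytes, had a difference of 1.09 ± 0.34 (adjusted p = 0.845), and NOTCH1, a receptor that acts in the nucleus once cleaved, 1.94. ID3, an inhibitor of E proteins, had -1.54. Among 24 activating receptors and signalling chains, CD7 had 1.63 ± 0.51 and FCER1G, the adaptor of CD16, 1.18 ± 0.38 (adjusted p = 0.845 and 0.883). CRTAM, an adhesion receptor of activated lymphocytes, had -1.24 ± 0.45. Of 9 inhibitory receptors and phosphatases, PTPN6, the gene of SHP-1, alone had an unadjusted p under 0.05 (1.22 ± 0.51, adjusted p = 0.909). Over all genes that threshold gave 1.83% higher and 3.55% lower. Of 26 cytokine receptors and transducers, TGFBR3, a coreceptor for transforming growth factor beta, had 1.71 ± 0.54 (adjusted p = 0.865) and KIT, the receptor of stem cell factor, -2.49 ± 0.97 (adjusted p = 0.887). On the second slide alone KIT had -0.10 and RUNX3 0.10, against -2.82 and 1.28 on the first.

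Genes with lower levels in CD11b+ cells did not pass the test either, and the smallest adjusted p was 0.555. It belonged to RGS1, a regulator of G protein signalling that restrains responses to chemokines. RGS1 had levels between 1.77 and 5.05 (median 3.67) on CD11b+ arrays, against 4.29 to 6.41 (median 5.17) on CD11blo arrays. The difference was -1.62 ± 0.41 (-0.89 on the first slide alone and -2.13 on the second), and 7 of 10 CD11b+ arrays lay below all CD11blo arrays. Its relative RGS2 had -0.13 to 4.57 (median 3.44) on CD11b+ arrays, against 3.30 to 5.64 (median 4.16) on CD11blo arrays, with a difference of -1.59 ± 0.48 (adjusted p = 0.845).

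HES1, a transcriptional repressor induced by Notch, had a difference of -3.09 ± 0.87 (adjusted p = 0.681), from levels of -7.45 to -1.07 (median -6.03) on CD11b+ arrays and -6.27 to 0.47 (median -2.41) on CD11blo arrays. It was well above background on 3 CD11b+ and 6 CD11blo arrays. COTL1, which binds actin filaments, had -2.64 to 3.34 (median 0.17) on CD11b+ arrays and 2.15 to 4.74 (median 2.84) on CD11blo arrays, a difference of -2.52 ± 0.71 (adjusted p = 0.681). Its CD11b+ values were spread far more widely than its CD11blo values. The other 9 genes of lowest p on this side had differences between -2.23 (USP6NL) and -1.0 (HOOK1). LY6D, a membrane protein of the Ly6 family, had -1.37 ± 0.38, with 9 of 10 CD11b+ arrays below all CD11blo arrays and 1 CD27loCD11b+ array well above the other CD11b+ arrays. SLC25A43, of the mitochondrial carrier family, was well above background on 3 CD11b+ and 6 CD11blo arrays, and FRAS1, an extracellular matrix protein, on 2 and 6 in the same order.

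**Figure D3:**
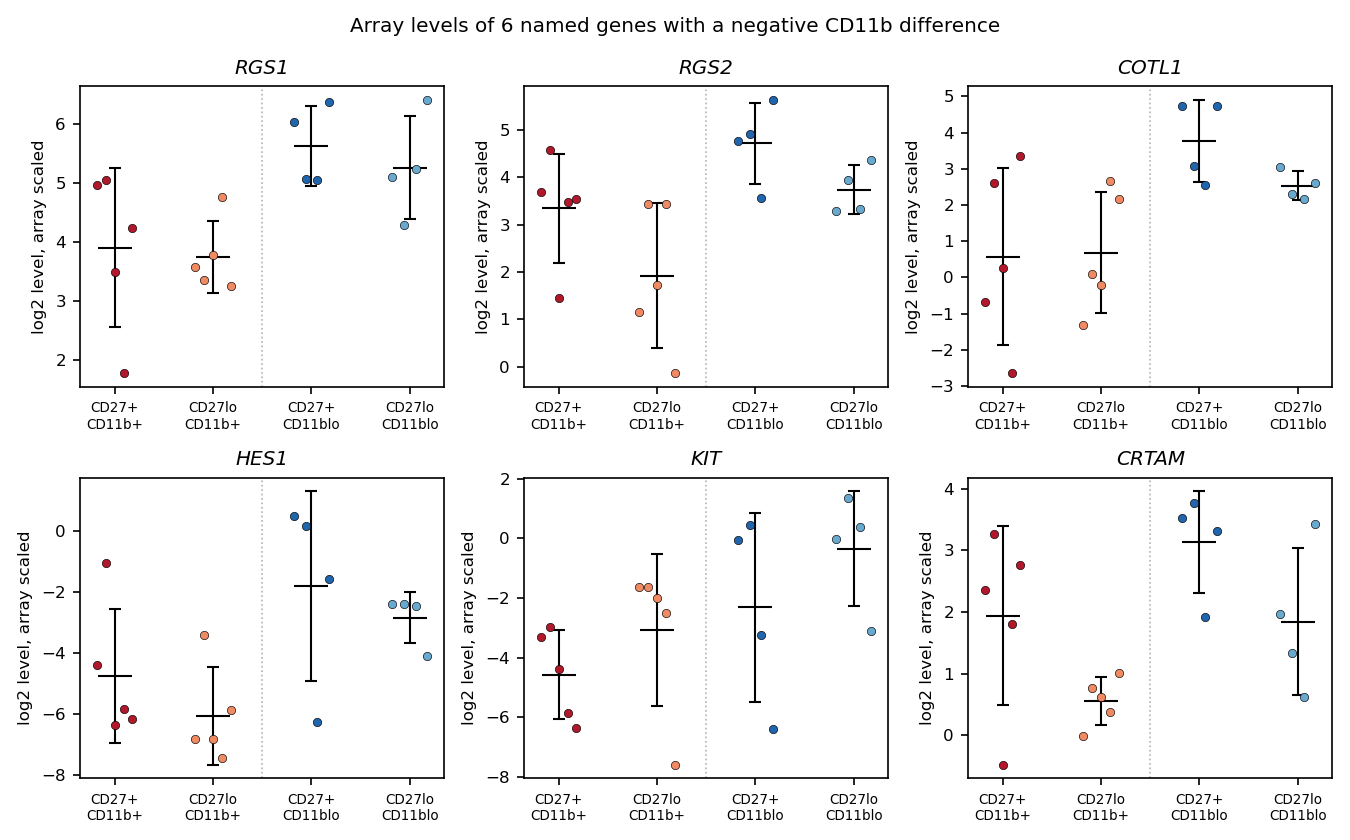
Each point is 1 array, grouped by subset, with the log2 level on the y axis (0 at the 75th percentile of the array) and mean and SD as bars (n = 5 for each CD11b+ subset, 4 for each CD11blo subset). RGS1 has 7 of 10 CD11b+ points under all CD11blo points, and the CD11b+ points of COTL1 are spread more widely than its CD11blo points.

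Of 17 tissue residency genes tested, 12 lay below the median of all genes and the list median was -0.39. There were 4 with a lower level in CD11b+ arrays at an unadjusted p under 0.05 (3.55% of all genes) and 0 with a higher one (1.83%). They were RGS1, RGS2, CRTAM and P2RX7, a receptor of extracellular ATP (-1.32). The 40 immediate early genes, which cells transcribe within minutes of a stimulus or of handling, had a median of -0.35, with 25 below the median of all genes. RGS1, RGS2, DUSP5 (-0.76) and GADD45A (-1.43) had an unadjusted p under 0.05 there, and the first pair belongs to both lists. The residency median was -0.41 on the first slide alone and -0.25 on the second, and the immediate early median -0.40 and -0.39. The immature or CD56bright-like list held 5 of 22 members with a lower level at an unadjusted p under 0.05, namely COTL1, GPR183 (-1.26 ± 0.47), ID3, CAMK4 (-1.08) and KIT. Its median of -0.13 equalled that of all genes in this fit, with 11 members on each side of it. It was -0.54 with slide as a fixed block (all genes -0.03), -0.64 on the first slide alone (all genes -0.06) and -0.07 on the second (all genes 0.06).

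The lists of other processes were as follows. The median was -0.01 for 32 cell cycle genes, -0.03 for 29 interferon response genes, -0.08 for 27 oxidative phosphorylation genes, 0.03 for 13 glycolysis genes and -0.19 for 19 heat shock genes. Of these lists, interferon response alone had a member with an unadjusted p under 0.05, the deconjugating enzyme USP18 (1.55 ± 0.66). Over all genes that threshold gave 1.83% higher and 3.55% lower. Integrins and adhesion (26 genes, median -0.005) had 2 such members higher and 2 lower. Selectin ligand and glycan synthesis (23, -0.07) had 2 higher and 0 lower, namely SELPLG, which had been picked on these arrays, and C1GALT1C1. The difference of C1GALT1C1 was 1.84 ± 0.79, and -1.36 on the second slide alone. Chemokine and egress receptors (21, -0.08) had 0 higher and 1 lower. Chemokines and cytokines (15, -0.30) had 0 in either direction. Apoptosis regulators (24, 0.15) had a median 0.29 above that of all genes and held members of both signs. Of them 3 were higher and 2 lower at that unadjusted threshold, and none passed the adjusted test. BBC3, the proapoptotic protein PUMA, had 2.48 ± 0.85 and the death receptor adaptor FADD 1.34 ± 0.49 (both adjusted p = 0.887, limma). BBC3 levels were -3.82 to 3.10 on CD11b+ arrays and -3.99 to 1.98 on CD11blo arrays. The prosurvival genes BCL2A1 and BIRC3 had -1.49 and -1.70.

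**Figure D4:**
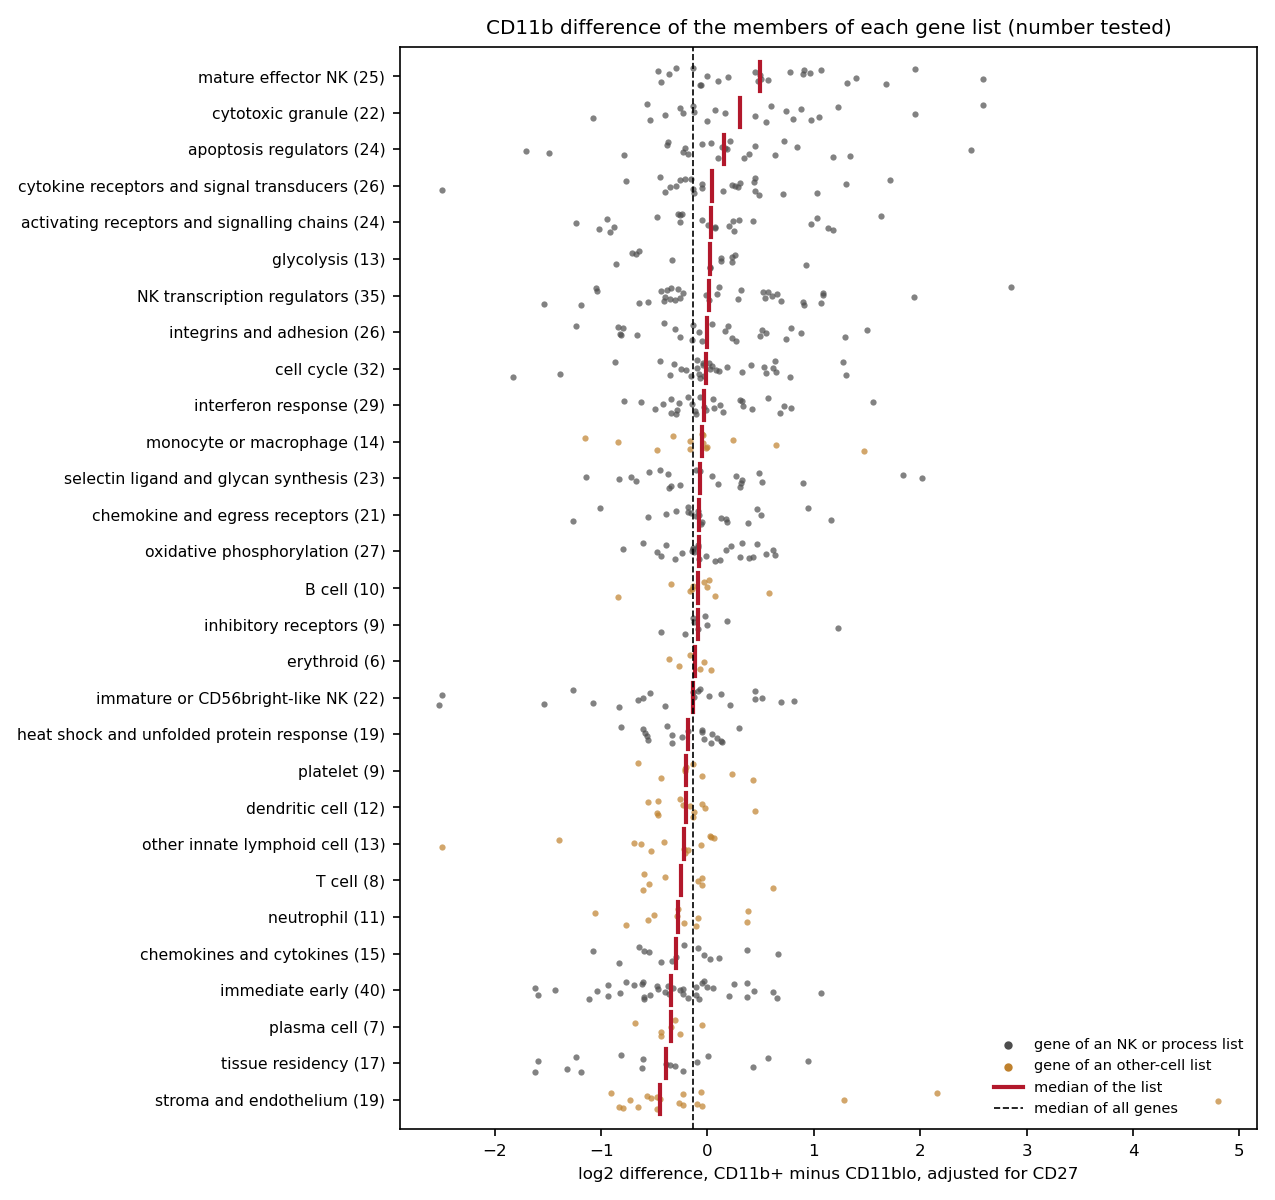
Each point is a gene of the list named on the y axis, with the number tested in brackets, and the x axis is the log2 difference of CD11b+ minus CD11blo arrays adjusted for CD27. Red bars are list medians and the dashed line the median of all genes (-0.13). In this fit mature effector NK genes have the highest list median (0.50) and stromal genes the lowest (-0.45), which was -0.05 with slide as a fixed block and 0.14 on the second slide alone. PDGFRB is the rightmost point.

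Markers of cells outside the gate were measurable on these arrays. Of 13 genes of other innate lymphoid cells, 9 lay below the median of all genes. IL23R (-1.40 ± 0.48) and KIT had a lower level in CD11b+ arrays at an unadjusted p under 0.05 (3.55% of all genes). No member had a higher one (1.83%). The summed log2 level of that list was 1.78 to 2.27 (median 2.04) on CD11b+ arrays and 1.98 to 2.77 (median 2.46) on CD11blo arrays. This sum differed by -0.43 between them (two-sided exact permutation test within CD27 status, p = 0.000504, adjusted p = 0.00605 over 12 array measures and summed levels). The difference was -0.35 on the first slide alone (p = 0.278) and -0.41 on the second (p = 0.111, same exact test). None of the other 11 measures passed, and their adjusted p was 0.304 or more. The list was written with results of these arrays known, so this p is a description rather than independent evidence. The exchange of CD11b labels kept neither donor labels nor slides together, and the third slide held CD11b+ arrays alone. IL23R was well above background on 1 CD11b+ and 4 CD11blo arrays. Of 8 T cell genes, 4 lay above the median of all genes, and their summed level was 2.72 to 3.82 (median 3.05) on CD11b+ arrays and 2.55 to 3.89 (median 3.48) on CD11blo arrays. The T cell list median was -0.53 with slide as a fixed block, where that of all genes was -0.03. It was -0.35 on the first slide alone (all genes -0.06) and -0.38 on the second (all genes 0.06). List medians in the main fit were -0.09 for B cells, -0.35 for plasma cells, -0.25 for T cells, -0.05 for monocytes or macrophages, -0.20 for dendritic cells, -0.27 for neutrophils, -0.12 for erythroid cells and -0.20 for platelets. In these sorted bulk samples fewer cells of a type and less RNA per cell cannot be told apart, and the part of such cells in the KIT and IL23R values was not tested.

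The CD11b difference was also taken within each CD27 status. PLEKHG3 had 3.65 ± 0.58 within CD27+ cells and 2.49 ± 0.58 within CD27lo cells. PRF1 had 1.33 ± 0.44 and 2.56 ± 0.44, and GZMH 1.95 ± 0.81 and 3.22 ± 0.81, in the same order. PDGFRB had 4.67 ± 1.23 and 4.93 ± 1.23, RGS1 -1.73 ± 0.59 and -1.52 ± 0.59. No gene passed for a difference between the CD27 states (limma interaction term, 0 of 12192), and 174 genes (1.43%) had an unadjusted p under 0.05 for it. All 24 genes of lowest p in the main effect had the same sign in both CD27 states, a description of genes picked on the mean of the 2.

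**Figure D5:**
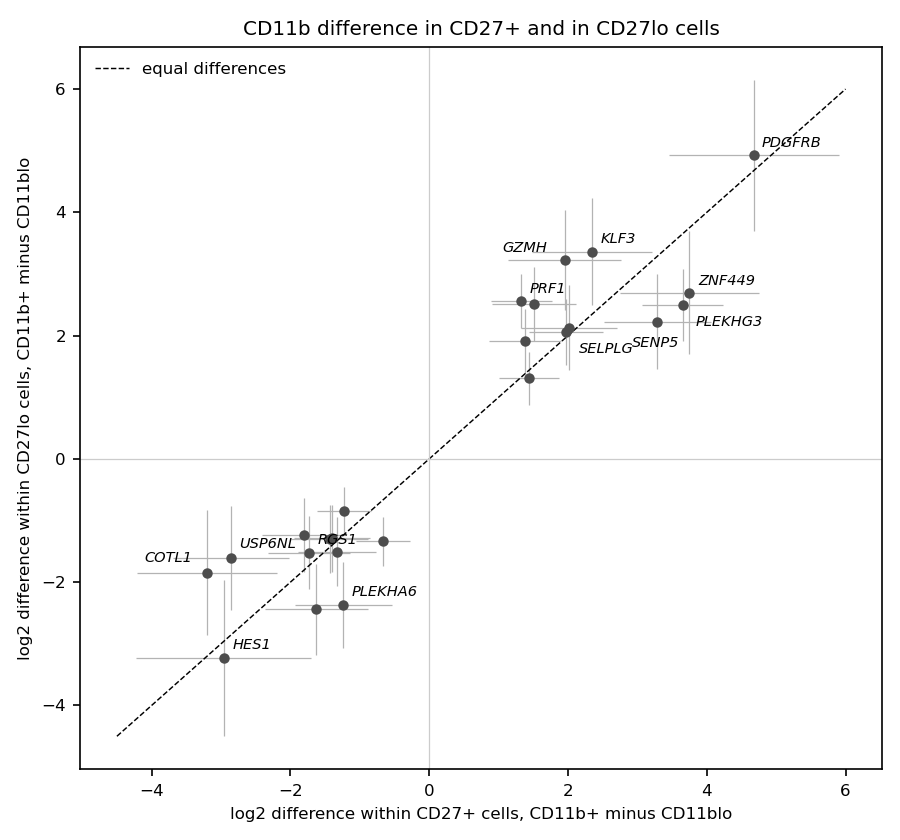
The 24 genes of lowest p in the CD11b comparison, with the log2 difference of CD11b+ minus CD11blo within CD27+ cells on the x axis and within CD27lo cells on the y axis. Bars are limma standard errors and the dashed line marks equal differences. PRF1, GZMH and KLF3 lie above the line and PLEKHG3, SENP5 and ZNF449 below it.

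Paired by donor label and CD27 status, the arrays gave 8 differences of a CD11b+ minus a CD11blo array. PLEKHG3 was higher in CD11b+ in 8 of 8 pairs (0.61 to 4.17, median 3.14), as were PRF1 (0.23 to 3.22), SELPLG (0.996 to 3.07), GZMH (0.96 to 5.01) and PDGFRB (2.78 to 7.95). STK38, TSPAN2, ZNF449, INPP5F, TGFBR3, BBC3, S100A4, LGALS1 and NKG7 shared that count, which 0.665% of genes reached. KLF3 and SENP5 were higher in 7 of 8. RGS1 was lower in 8 of 8 pairs (-3.17 to -0.02), as were RGS2, HES1, COTL1, CRTAM, ARMH4 and IL23R, a count reached by 1.22% of genes. Pairs of 1 donor label are not independent of each other, and the pairs use the arrays of the main comparison. The pairs of the 18-year-old label set CD11b+ arrays of the third slide against CD11blo arrays of the second, so slide and CD11b changed together. They gave the highest PRF1 and GZMH differences and the lowest PLEKHG3 difference. The pairs of replicate 3 joined labelled ages of 12 and 10 years in CD27+ cells and of 11 and 9 years in CD27lo cells.

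Most probes of the array could not be given a gene name. When each of 56918 probes was tested, 14 passed, all with a higher level in CD11b+ arrays. They included both PLEKHG3 probes, 1 of PRF1 (adjusted p = 0.0370) and 11 without a name. Of the unnamed probes, 8 followed the PLEKHG3 probe with Pearson correlations of 0.995 or more over the 18 arrays, which share depth and scaling, and had differences between 2.96 and 3.15. The other 3 had differences between 4.77 and 5.25, and 1 of them correlated with PDGFRB at 0.948.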

How the data were processed

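Amplified RNA of 18 sorted NK samples was measured on 1-colour Agilent arrays. The submitters' processing notes name Agilent Feature Extraction 10.7.1.1 and Partek. Per the file headers, the processed signal is an intensity that was corrected for background and for trends across the array. Values in the deposited matrix are on a log2 scale with shared quantiles and served as an alternative.

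Non-control spots (58839 per array) gave 58659 probes, of which 20417 (34.8%) matched 12530 genes of the RefSeq gene table by accession. Outlier-flagged spots were removed and spots of a probe averaged. Probes well above background on at least 4 arrays were kept, and the brightest probe stood for its gene. The log2 signal minus the array's 75th percentile entered a linear model of CD11b and CD27 without a block, using limma 3.58.1 (R 4.3.3) with the trend and robust options of eBayes. The p-values were adjusted by Benjamini-Hochberg at 0.05 over 12192 genes, of which 20 had a value missing on an array. Errors of differences are limma standard errors.

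The comparison, the markers and the 30 gene lists (534 of 792 genes tested) were chosen with earlier results of these data known. Named were the markers and CD27, the 12 genes of lowest p in each direction (those past the threshold first), the 2 of lowest p in each NK or process list, and, after their values were seen, further list members with an unadjusted p under 0.05 or of interest beside them. Lists are described by counts and medians, without a set test, and 1 list is not reported here. The exact permutation test covered 12 array measures and summed marker levels. Scripts were tested on simulated data. The number of arrays limits precision, and no spot was saturated. Alternatives changed the normalization, background, filter, probe choice, blocks, slides, design and weights, and left out each array. Normexp used median spot signals in place of the planned means. Promoter motifs were not analysed here.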

Additional observations from a re-analysis of the deposited data

Results flagged for a closer look

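Of 296 groups of arrays examined, 20 held an array far from the others of its subset by Dixon's gap test, which flags about 1 group in 20 by chance. Values are log2 levels, and no explanation was tested.

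In CD27+CD11b+ cells, a different array each lay low for BBC3 (-1.46 in replicate 4, next 2.37), FADD (-3.95 in replicate 5, next -1.56) and PKM (-2.74 in replicate 1, next -0.68). Replicate 4 also had 67.9% of probes well above background (next 85.7%). The summed stromal level was low on 1 array (2.98, next 3.62), and the summed erythroid level high (3.40, next 2.41). In CD27loCD11b+ cells, 1 array each lay high for LY6D (-2.15, next -3.65) and LGALS1 (3.25, next 1.89), and low for FCER1G (2.61, next 3.87), KIT (-7.58, next -2.51) and NKG7 (-1.55, next 1.29). That KIT value was not well above background.

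In CD27+CD11blo cells, 1 array lay low for PRF1 (0.86, next 2.35), within the range of CD27loCD11blo cells. Others lay high for ANGEL1 (0.46, next 0.02) and low for RRM1 (-2.998, next -1.22) and COL11A1 (-8.08, next -5.29). That COL11A1 value equalled the PDGFRB value of the same array, where PDGFRB was not well above background. The log2 75th percentile of signal was low on 1 array (9.68, next 10.36), and the summed erythroid level high (2.80, next 2.13). In CD27loCD11blo cells, 1 array each lay low for HES1 (-4.12, next -2.48), PTGER4 (-2.76, next 0.43) and the summed monocyte or macrophage level (3.49, next 3.72). That HES1 value was not well above background.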

How the results depend on the processing

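PLEKHG3 kept a positive difference under all 37 alternatives (2.29 to 3.39) and passed in 33. It did not pass with slide as a fixed block (2.95), with the donor block (2.90), or on the first (3.39) or second slide alone (2.29), where 8 and 6 arrays entered. Leaving out 1 array gave 2.89 to 3.29 for PLEKHG3, 1.81 to 2.07 for PRF1 and 1.80 to 2.18 for SELPLG. PRF1 passed with normexp (1.87), with probes well above background on all 18 arrays, the mean of the 2 differences within CD27 states or CD11b alone (1.95 in each), and with array weights (1.95). It also passed without CD27+CD11b+ replicate 3 (2.05), CD27loCD11b+ replicate 1 (2.04), CD27+CD11blo replicate 1 (2.05) or CD27+CD11blo replicate 3 (2.07). SELPLG passed with the all-array filter (2.02), array weights (2.001) and without CD27loCD11b+ replicate 1 (2.14).

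The number of genes higher past the threshold was 0 with slide as a fixed block, with the donor block and on the first or second slide alone. It was 2 with quantile normalization, the deposited matrix and the mean of the differences within CD27 states, and 3 with normexp, the all-array filter, CD11b alone and without the 2 dimmest arrays. It was 8 with array weights, 14 for every probe, and 1 to 3 without 1 array (3 without CD27+CD11b+ replicate 3, CD27loCD11b+ replicate 1 or CD27+CD11blo replicate 1). The count lower stayed at 0 under all 38 alternatives. At an unadjusted p under 0.05, 253 genes were lower with quantile normalization or array medians, 252 with the deposited matrix, 229 with the all-array filter, 102 with slide as a fixed block, 207 without the third slide, 200 on the second slide, 967 with array weights and 2380 probes. The count higher was 157 with slide as a fixed block, more than the 102 lower there, 373 with array weights and 1012 probes. Without 1 array these counts were 300 to 767 lower (767 without CD27+CD11b+ replicate 3) and 166 to 316 higher.

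Signs reversed for CD200R1 with quantile normalization or the deposited matrix (0.029 in each), slide as a fixed block (0.0141) and the first slide alone (0.0369), and there also for CD27 (0.0692), RRM1 (0.0476) and ATP5F1B (0.0779). On the second slide C1GALT1C1 was -1.36, CFL1 -0.44 and UQCRFS1 0.0135. The difference in log2 array signal was 0.28 without the third slide, 0.00849 on the first and 0.54 on the second, and -0.34 to 0.26 without 1 array. That in percent well above background was 1.07 without the third slide, 3.39 on the second, and -3.54 to 0.24 without 1 array. The difference in the summed level of other innate lymphoid cell genes did not pass on the first slide (-0.35) or the second (-0.41), where few arrangements exist, and was -0.49 to -0.37 without 1 array. The causes were not tested.

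Same-numbered replicates did not deviate together throughout. Correlations of their deviations from subset means ran between -0.30 and 0.41, and 12 of 18 arrays correlated best with an array of their own number. With the replicate block PLEKHG3 had 3.19 (adjusted p = 0.0223, limma), PRF1 1.81 and SELPLG 1.87, and the calls were as without it. That block does not follow the donor labels. Replicate 4 carried the 5-year-old label in the CD11b+ subsets and the 18-year-old label in the CD11blo subsets. Replicate 5 occurred in the CD11b+ subsets alone. With the donor label as a block PLEKHG3 had 2.90 and did not pass (adjusted p = 0.0876, limma). The third slide held CD11b+ arrays alone, so slide and CD11b overlap in part, and genes near background depend on few arrays.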
